A study of Mus musculus with 12 samples.

Results

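The comparison is between the livers of mice fed a MASH diet and the livers of mice fed chow, both given saline vehicle, across all genes of the deposited table. It takes 8 of the 12 libraries of the series, the 4 labelled MASH diet with vehicle and the 4 labelled chow diet with vehicle, chosen by their labels alone. The remaining 4 libraries come from mice on the MASH diet that received the hormone FGF21, and they enter no result here except an alternative fit. The labels give C57BL6/J as the genotype of every mouse and 4 weeks of treatment, and both groups compared received saline as the vehicle. The polyadenylated RNA was of whole liver, and the labels name no transgene, the composition of the MASH diet, the ages or the sex. MASH stands for metabolic dysfunction-associated steatohepatitis, in which fat in the liver is accompanied by inflammation, injury and scarring. The comparison asks which RNAs of the liver differ between the diets in mice that received no hormone. The libraries are written below as chow 1 to 4 and MASH 1 to 4, after the replicate numbers of the labels.

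Hepatocytes fill most of the liver. They make and burn fatty acids, make cholesterol through the mevalonate pathway, pack lipid into droplets or into lipoproteins, detoxify nitrogen through the urea cycle, clear drugs with cytochromes P450, and secrete most proteins of the blood plasma. Cholesterol synthesis genes are switched on by the transcription factor SREBP2 when sterol is scarce, and oxidised sterols activate the receptor LXR, which raises genes of sterol export. In a fatty, inflamed liver, resident macrophages (Kupffer cells) are joined by recruited macrophages that take up lipid and debris, and stellate cells turn into myofibroblasts that lay down collagen. In whole liver, fewer cells of a type and less RNA per cell cannot be told apart.

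Values are TPM, a unit of transcript abundance in which a gene's level is set relative to its length and to the total of its library. Of 14822 genes in the table, 10752 had at least 1 TPM in at least 4 of the 8 libraries and were tested. Fold changes are differences of mean log2(TPM + 1), MASH minus chow, which understate changes at low values. A gene is said to have risen or fallen when its adjusted p in limma, a linear model fitted to all genes together, was under 0.05. On TPM, 3966 genes rose (36.9% of those tested) and 1209 fell (11.2%), together 48.1%, and for 42.9% of genes the groups of 4 did not overlap. The 13 mitochondrially encoded genes took 9.11% to 12.4% of the total in chow and 6.13% to 7.22% in MASH, and the Mup genes, which encode major urinary proteins, took 5.92% to 7.33% and 2.78% to 4.39%. Over all genes tested the median log2 fold change was 0.188. After median-of-ratios scaling, which equalises the typical gene instead of the total, the median was −0.011, and 2101 genes rose (19.5%) and 2360 fell (21.9%). All 2101 of these rises were also called on TPM, and all 1209 falls on TPM were also called after the scaling. Below, a change held under both scalings when it was called the same way in both, which was so for 19.5% of genes as rises and 11.2% as falls. Each count of a list is to be read against these shares, and where nothing else is said a named gene held under both scalings. Fold changes also rose with GC content, from a median of −0.21 in the group of genes with the lowest GC content to 0.29 in that with the highest, of 5 equal groups, and with that trend removed 33.9% of genes rose and 8.23% fell. Beyond the fit with the trend removed, its part in the results was not tested.

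The libraries of a group were alike. Across genes, Pearson's r of log2(TPM + 1) lay at 0.982 to 0.994 within chow and 0.989 to 0.992 within MASH, against 0.947 to 0.972 between the groups. Of the variance, 67.4% lay on the first principal component, which separated the diets. Chow 2 differed from the other chow libraries in several hepatocyte genes, which are given where they touch a result. With mitochondrially encoded, Mup, predicted and immunoglobulin genes left aside, genes of hepatocyte proteins had the highest mean levels over the libraries. Apoe was at 34136 to 38927 TPM in the chow libraries and 40967 to 45706 TPM in the MASH libraries, Apoa2 at 24376 to 32175 TPM in the chow libraries and 28085 to 31427 TPM in the MASH libraries and Alb, serum albumin, at 18521 to 26474 TPM in the chow libraries and 22643 to 24991 TPM in the MASH libraries. Apoe rose on TPM only, and the other 2 were not called. The reads of close relatives (the Mup, Cyp2c, Cyp4a, Gstm, Serpina1, Saa, Acot and Scd families among others) can be divided between members, so single values of those genes are uncertain. The read depth behind the values is unknown, because TPM keeps none. Apoe lost its call without chow 3 (log2 fold change 0.24).

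**Figure D1:**
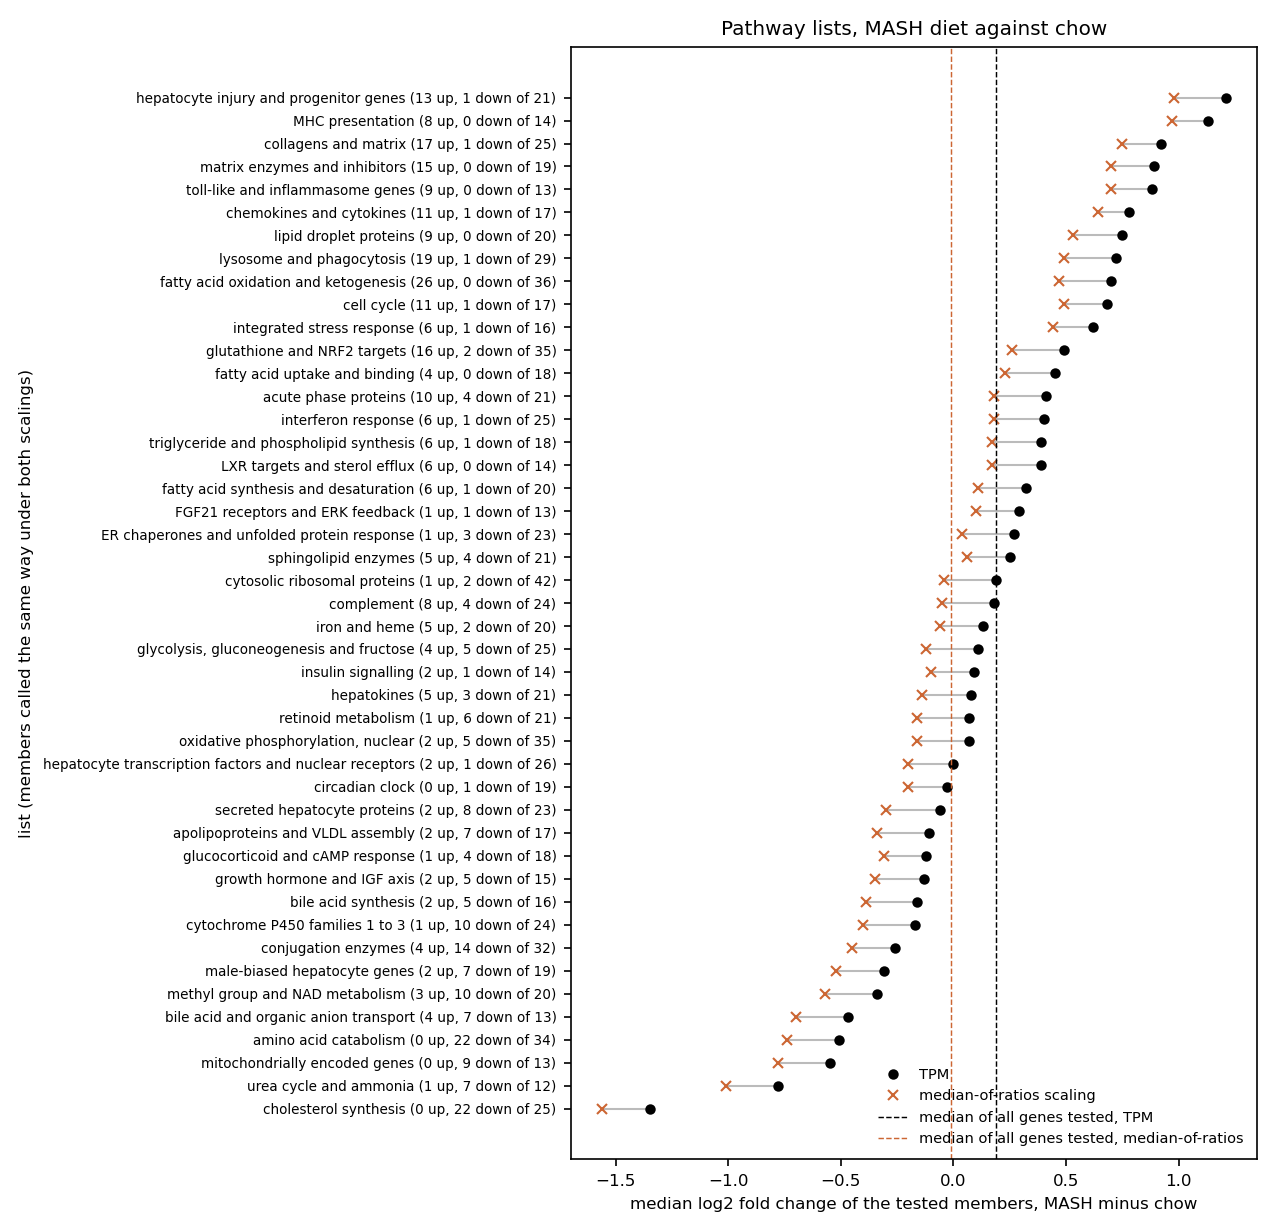
Median log2 fold change (MASH minus chow) of the tested members of 45 pathway lists, on TPM (black points) and after median-of-ratios scaling (orange crosses), with the medians of all genes tested as dashed lines at 0.188 and −0.011. Cholesterol synthesis lies lowest at −1.35 and genes of hepatocyte injury highest at 1.21; the counts beside the names are members called the same way under both scalings.

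Cholesterol synthesis fell almost as a block. All 25 members of the list were tested, 22 fell under both scalings and 0 rose, and the median log2 fold change was −1.35, against 0.188 for all genes. Idi1, which isomerises the C5 building blocks of sterols, was at 119, 122, 82.8 and 83.2 TPM in the chow libraries and 7.9, 7.8, 8.4 and 6.3 TPM in the MASH libraries. The groups lay far apart (log2 fold change −3.56 ± 0.149 (SE), limma adjusted p = 7.26e-07). Squalene epoxidase, Sqle, was at 24.9, 15.2, 18.2 and 19.4 TPM in the chow libraries and 4.8, 3.8, 3.6 and 1.9 TPM in the MASH libraries, and the sterol demethylase Cyp51 at 38.4, 34.3, 34.2 and 34.8 TPM in the chow libraries and 7.7, 9.3, 6.9 and 6.0 TPM in the MASH libraries, with log2 fold changes of −2.20 and −2.12 (limma adjusted p = 3.23e-05 and 2.99e-06). The falls ran from the start of the pathway (Hmgcs1, −1.62) through the farnesyl steps (Fdps, −1.49; Fdft1, −1.46) to the late sterol steps (Msmo1, −2.55; Nsdhl, −1.81; Dhcr7, −0.98). Regulators fell as well. Srebf2, which encodes SREBP2, went from 25.7 ± 1.71 to 19.6 ± 1.77 TPM (mean ± SD, n = 4 here and below), and Insig1, which retains SREBP in the endoplasmic reticulum, from 138 ± 64.9 to 62.1 ± 17.4 TPM. Of the 3 members not called on TPM, the thiolase Acat2 was at 80.0, 66.9, 68.0 and 74.1 TPM in the chow libraries and 68.0, 72.1, 65.2 and 79.1 TPM in the MASH libraries, with overlapping groups. Hmgcs1, Fdps, Fdft1, Nsdhl, Dhcr7, Srebf2, Insig1 and Acat2 were picked with their values in view.

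The promoters of several of these genes are shown because the genes moved together. Of the 25 members, 17 matched an entry in the RefSeq promoter table (build GRCm38.p6). Within the 200 bases before the annotated start, the letters CCAAT on either strand, the box bound by the factor NF-Y, occurred in 15 of the 17, and in 36.9% of 8571 tested genes with an entry. The letters TCACNCCAC on either strand, after the sterol regulatory element, occurred in 1 of the 17, Hmgcs1, and in 1.1% of the 8571. A match of letters describes the sequence and is not evidence of binding. The 4 stretches lie at chr13:119690151-119690350 on the plus strand for Hmgcs1, chr13:8885406-8885605 on the plus strand for Idi1, chr5:4104698-4104897 on the minus strand for Cyp51 and chr8:64733579-64733778 on the minus strand for Msmo1. They read 5′ to 3′ on the strand of the gene, with the matches in capitals. In Hmgcs1 the capitals cover both motifs, which do not overlap there.
Hmgcs1: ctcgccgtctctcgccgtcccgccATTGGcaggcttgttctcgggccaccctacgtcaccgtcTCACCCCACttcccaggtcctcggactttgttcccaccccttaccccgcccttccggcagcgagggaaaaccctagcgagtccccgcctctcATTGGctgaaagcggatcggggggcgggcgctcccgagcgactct
Idi1: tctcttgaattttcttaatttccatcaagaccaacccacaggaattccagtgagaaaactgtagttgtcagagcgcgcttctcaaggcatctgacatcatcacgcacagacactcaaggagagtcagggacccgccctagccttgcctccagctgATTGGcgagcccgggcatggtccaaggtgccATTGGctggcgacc
Cyp51: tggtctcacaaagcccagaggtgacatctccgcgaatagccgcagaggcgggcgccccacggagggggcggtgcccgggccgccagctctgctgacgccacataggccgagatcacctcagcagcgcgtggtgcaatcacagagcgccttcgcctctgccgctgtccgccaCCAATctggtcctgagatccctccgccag
Msmo1: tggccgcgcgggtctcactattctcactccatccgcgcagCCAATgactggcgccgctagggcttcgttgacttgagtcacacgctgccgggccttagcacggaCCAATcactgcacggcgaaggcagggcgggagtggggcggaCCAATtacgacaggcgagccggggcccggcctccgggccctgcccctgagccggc

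LXR targets and sterol export genes rose in part. Of 14 of 16 listed LXR targets and sterol efflux genes tested, 10 rose and 0 fell on TPM, 6 of them under both scalings, and Lcat and Pltp were called lower only after the scaling. The paired sterol exporters Abcg5 and Abcg8, which pump cholesterol into bile, were at 30.3, 38.9, 40.0 and 45.2 TPM in the chow libraries and 110.0, 82.8, 85.6 and 89.1 TPM in the MASH libraries and at 77.6, 105, 102 and 117 TPM in the chow libraries and 236, 188, 224 and 212 TPM in the MASH libraries. Neither gene overlapped between the groups, and the log2 fold changes were 1.23 and 1.1 (limma adjusted p = 6.45e-05 and 9.68e-05). Abcg1, an exporter of macrophages and other cells, rose by 1.17, the ubiquitin ligase Mylip by 1.01, and the phospholipid enzyme Lpcat3 by 0.79. Abca1, the main exporter to HDL, rose by 0.37 on TPM but not after median-of-ratios scaling. Nr1h3 itself, which encodes LXR alpha, rose from 191 ± 11 to 222 ± 10.3 TPM on TPM (0.22), and its log2 fold change was −0.01 after the scaling, where it was not called. Pltp was called without MASH 1 or chow 4 (log2 fold change −0.48 to −0.43). Abca1 lost its call without MASH 1, MASH 4, chow 1 or chow 2 (log2 fold change 0.30 to 0.35). Nr1h3 lost its call without MASH 1, MASH 2, MASH 4, chow 2, chow 3 or chow 4 (log2 fold change 0.19 to 0.24). Of the tested LXR targets and sterol efflux members, 1 passed the filter through the MASH libraries alone. Among the other 13, 9 rose, 5 of them under both scalings. LXR targets and sterol efflux members called lower numbered 1 without MASH 1 or chow 4. Pltp, Abcg8, Mylip and Abca1 were picked with their values in view.

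**Figure D2:**
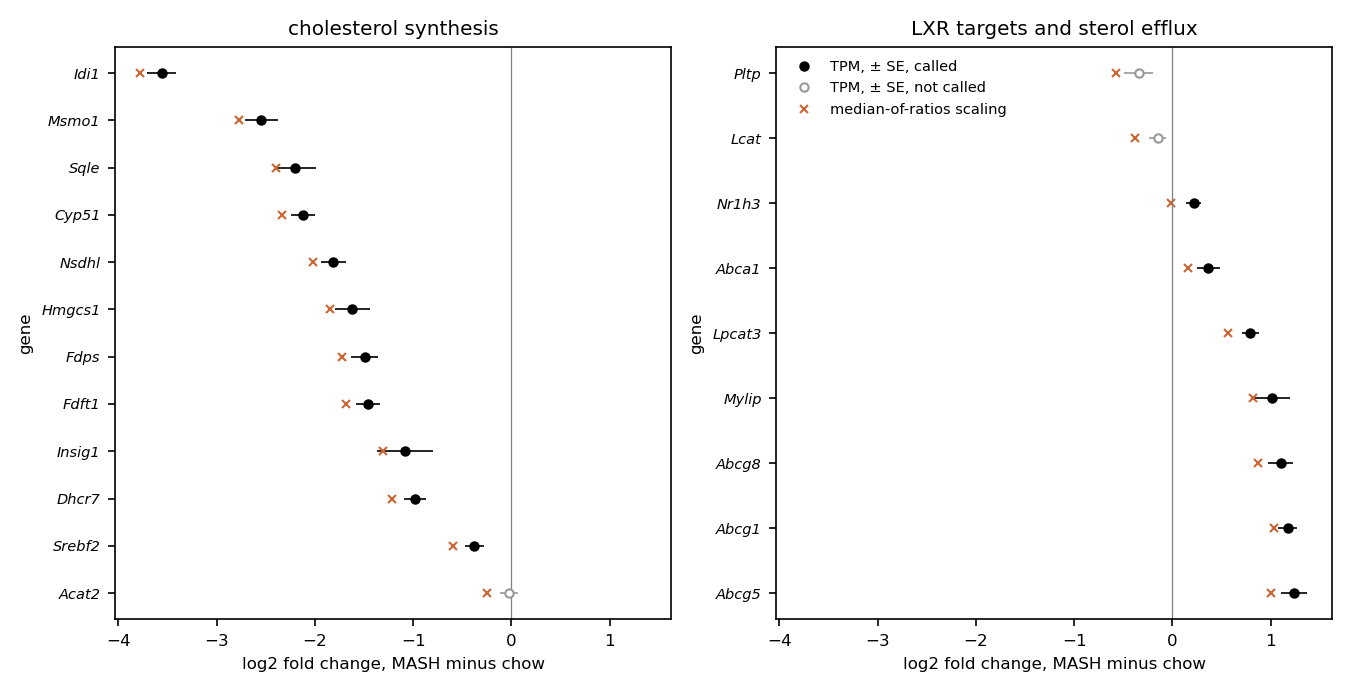
Log2 fold change (MASH minus chow, ± SE) of the tested genes named in the text from the cholesterol synthesis list (left) and the LXR and sterol efflux list (right), on TPM (points; filled where the adjusted p was under 0.05) and after median-of-ratios scaling (crosses). The called synthesis genes lie left of 0 and the called LXR targets right of it, and the crosses sit to the left of the points throughout.

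Lipid droplet proteins rose. Of 20 of 21 listed genes tested, 17 rose and 0 fell, 9 rose under both scalings, and the list median was 0.75. Cidea and Cidec, which fuse small droplets into large ones, were among the largest rises of all genes. Cidea was at 1.6, 4.2, 0.2 and 2.6 TPM in the chow libraries and 42.0, 105, 118 and 104 TPM in the MASH libraries, and Cidec at 4.9, 29.4, 10.9 and 15.6 TPM in the chow libraries and 338, 391, 343 and 468 TPM in the MASH libraries. In both genes the lowest MASH library held at least 10 times the highest chow library. Plin4, a droplet coat protein best known from fat tissue, was at 1.0, 5.6, 5.2 and 3.0 TPM in the chow libraries and 39.2, 42.3, 83.3 and 75.0 TPM in the MASH libraries (log2 fold change 3.76 ± 0.392 (SE), limma adjusted p = 0.0001; chromosome 17, 56100591 to 56109803 on the minus strand). Plin2, the main droplet coat protein of hepatocytes, was at 541, 822, 546 and 592 TPM in the chow libraries and 1198, 2018, 1319 and 1566 TPM in the MASH libraries, and the steroid dehydrogenase Hsd17b11, which sits on droplets, rose by 1.37. Mgll, the monoglyceride lipase, went from 93.8 ± 15.7 to 236 ± 32.6 TPM with a rise that passed the test (log2 fold change 1.33, limma adjusted p = 4.3e-05). Hsd17b13, a droplet enzyme whose human gene is tied to liver disease risk, was at 260.0, 344, 293 and 291 TPM in the chow libraries and 361, 369.5, 397 and 314 TPM in the MASH libraries, with overlapping groups and a call on TPM only (0.28). Pnpla3, also tied to liver disease risk in people, was at 7.9, 3.2, 1.5 and 1.6 TPM in the chow libraries and 10.2, 11.5, 10 and 4.0 TPM in the MASH libraries. Chow 1 lay inside the MASH range, and the call on TPM (1.25, limma adjusted p = 0.0364) did not hold after the scaling. Hsd17b13 lost its call without MASH 1, MASH 2, MASH 3, chow 1, chow 3 or chow 4 (log2 fold change 0.22 to 0.28). Pnpla3 lost its call without MASH 1, MASH 2, MASH 3, chow 2, chow 3 or chow 4 (log2 fold change 1.03 to 1.28). Lipid droplet proteins called higher numbered 11 without MASH 2.

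Cfd, which encodes the complement factor adipsin, had the largest rise of all genes that the naming rule took, and also the widest spread. It was at 0.9, 3.3, 2.1 and 5.3 TPM in the chow libraries and 116, 66.6, 515 and 296 TPM in the MASH libraries (log2 fold change 5.71 ± 0.674 (SE), limma adjusted p = 0.000487). MASH 3 held more than 7 times the level of MASH 2, and even MASH 2 was above every chow library. Cfd, Cidea, Cidec, Plin4 and Fabp4, a fatty acid carrier that was at 6.8 to 9.3 TPM in the chow libraries and 24.9 to 61.2 TPM in the MASH libraries, are also adipocyte genes. Of 14 listed adipocyte markers 10 were in the table and 8 tested, 5 rose (Cfd, Cidea, Cidec, Plin4 and Fabp4) and 2 fell, Pck1 and Car3, which hepatocytes make in quantity. Those 2 dominated the summed level of the list, 6012 to 7375 TPM in chow and 3590.1 to 5504 TPM on the MASH diet. The defining adipocyte hormones Adipoq and Retn were at no more than 0.2 TPM in any of the 8 libraries. The part of adipocyte RNA in these rises was not tested. Car3 lost its call without MASH 1, MASH 2, MASH 4, chow 1 or chow 2 (log2 fold change −0.53 to −0.41). Adipocyte markers called lower numbered 1 without MASH 1, MASH 2, MASH 4, chow 1 or chow 2. Adipoq and Retn were picked with their values in view.

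**Figure D3:**
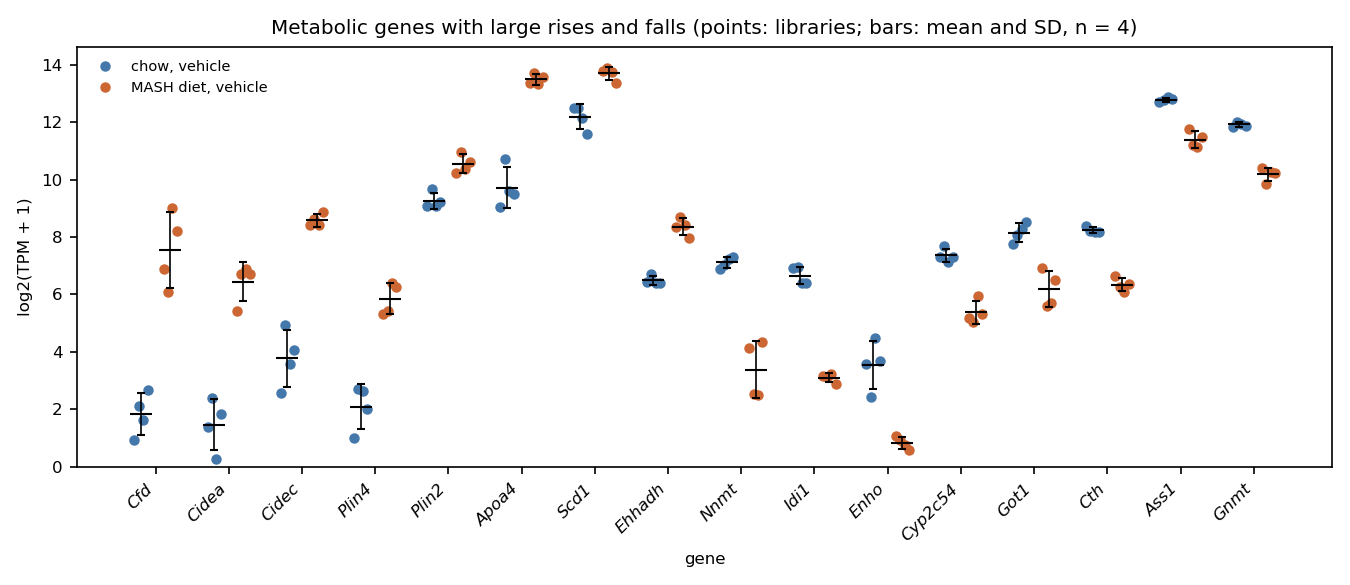
Level of 16 metabolic genes as log2(TPM + 1) in each library (points; blue chow, orange MASH) with the group mean and SD (bars, n = 4). Cfd and Nnmt vary most among the MASH libraries, and no gene shown has overlapping groups.

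Fatty acid synthesis was split. Of 20 of 21 listed genes tested, 7 rose and 1 fell on TPM. The count of rises is about that of all genes (36.9%), and 6 rose under both scalings. The desaturases rose: Scd1 was at 5794, 5842, 4557 and 3098 TPM in the chow libraries and 14276, 15292, 13794 and 10577 TPM in the MASH libraries, Scd2, its relative outside hepatocytes, went from 1.05 ± 0.436 to 6.03 ± 1.38 TPM, and Fads2, which makes polyunsaturated fatty acids, from 482 ± 88.0 to 1082 ± 207 TPM. Srebf1, which encodes the lipogenic regulator SREBP1, rose from 212 ± 43.4 to 442 ± 50.4 TPM (1.07), and Acaca, the acetyl-CoA carboxylase of the committed step, from 20.2 ± 1.49 to 33.1 ± 6.26 TPM. Other enzymes of the core of synthesis were not called higher. Fasn, fatty acid synthase, was at 708, 329, 267 and 309 TPM in the chow libraries and 332, 460.4, 341 and 239 TPM in the MASH libraries (limma adjusted p = 0.685). Acly, which supplies cytosolic acetyl-CoA from citrate, was at 386, 186, 185 and 174 TPM in the chow libraries and 159, 169, 152 and 83.8 TPM in the MASH libraries. In both genes chow 1 held the highest value of the 8 libraries. Acly did not overlap between the groups but did not pass on TPM (−0.68, limma adjusted p = 0.073), and it was called lower after the scaling. Acss2, which makes acetyl-CoA from acetate and is a target of SREBP2, fell from 195 ± 27.4 to 91.8 ± 11.1 TPM (−1.07, limma adjusted p = 8.12e-05). Fads2, Srebf1, Acaca and Acly were picked with their values in view.

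Triglyceride synthesis genes rose in part. Of 18 of 19 listed genes tested, 10 rose and 1 fell, and 6 rose under both scalings. Mogat1, a monoacylglycerol acyltransferase that is low in normal mouse liver, went from 3.05 ± 1.67 to 12.8 ± 3.32 TPM (1.82, limma adjusted p = 0.000556), Agpat2, of phosphatidic acid synthesis, from 393 ± 57.8 to 596 ± 28.4 TPM, and Lpcat3 from 58.6 ± 3.46 to 102 ± 6.85 TPM. Pemt, which methylates phosphatidylethanolamine to phosphatidylcholine, fell from 549 ± 21.8 to 425 ± 21.9 TPM (−0.37). Of 18 of 18 listed genes of fatty acid uptake and binding tested, 8 rose and 0 fell on TPM, and 4 rose under both scalings. The shares of all genes that rose were 36.9% and 19.5%. After the scaling 3 members were called lower. Lpl, lipoprotein lipase, which adult hepatocytes barely express, was at 1.2, 1.5, 1.3 and 1.1 TPM in the chow libraries and 17.5, 22.1, 22.7 and 19.8 TPM in the MASH libraries (log2 fold change 3.24 ± 0.112 (SE), limma adjusted p = 1.85e-07). Cd36, a fatty acid transporter, was at 33.5, 93.9, 21.9 and 27.2 TPM in the chow libraries and 94.0, 122, 114 and 95.7 TPM in the MASH libraries. Chow 2 nearly reached the lowest MASH library, and the other chow libraries lay far below (1.48, limma adjusted p = 0.0121). Fabp1, the abundant fatty acid carrier of hepatocytes, went from 13335 ± 1508 to 18872 ± 1292 TPM on TPM and did not hold after the scaling. Triglyceride and phospholipid synthesis members called lower numbered 2 without chow 2. Fatty acid uptake and binding members called lower numbered 1 without MASH 3 or chow 1. Pemt was picked with its values in view.

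Fatty acid oxidation rose broadly. All 36 listed genes of oxidation and ketogenesis were tested, 29 rose and 0 fell, 26 rose under both scalings, and the median was 0.70. Peroxisomal genes were among them. Ehhadh, a bifunctional enzyme of peroxisomal beta-oxidation, was at 85.5, 103, 84.0 and 83.4 TPM in the chow libraries and 324, 414, 339 and 252 TPM in the MASH libraries (log2 fold change 1.87 ± 0.14 (SE), limma adjusted p = 8.05e-06). Acaa1b, a peroxisomal thiolase, was at 3330.3, 3965, 3061 and 2579 TPM in the chow libraries and 8369, 8334, 8295 and 8664 TPM in the MASH libraries, and Pex11a, which drives division of peroxisomes, at 38.6, 55.6, 55.1 and 46.4 TPM in the chow libraries and 128, 154, 120.5 and 136 TPM in the MASH libraries. All 3 lay apart between the groups. Of the mitochondrial enzymes, Cpt1a, the gate for long-chain fatty acids, went from 249 ± 64.5 to 381 ± 32.6 TPM on TPM only, the medium-chain dehydrogenase Acadm from 154 ± 18.2 to 266 ± 24.5 TPM, and Hadha of the trifunctional protein from 76.2 ± 8.38 to 141 ± 11.7 TPM. Ppara, the receptor that activates most of these genes, rose from 43.4 ± 9.36 to 68.7 ± 5.65 TPM (0.68, limma adjusted p = 0.00494). The omega-hydroxylase Cyp4a14 was at 47.5, 203, 37.2 and 27.1 TPM in the chow libraries and 358, 480.1, 435 and 204 TPM in the MASH libraries. Its highest chow library, chow 2, nearly reached the lowest MASH library, MASH 4. The 7 members not called on TPM included the 3 genes of electron transfer flavoprotein and its dehydrogenase. Cpt1a, Acadm, Hadha and Cyp4a14 were picked with their values in view.

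Apolipoproteins rose and fell. Of 17 listed genes, all tested, 5 rose and 7 fell, and under both scalings 2 rose and 7 fell. Apoa4, an apolipoprotein of intestine that fatty liver also makes, was at 528, 1704, 772 and 719.5 TPM in the chow libraries and 10521, 13540.3, 10217 and 12101 TPM in the MASH libraries. It became one of the abundant transcripts of the liver, and chow 2 was the highest chow library by far (log2 fold change 3.77 ± 0.3 (SE), limma adjusted p = 2.06e-05; chromosome 9, 46240696 to 46243459 on the plus strand). Apoc2, the activator of lipoprotein lipase, went from 802 ± 208 to 1924 ± 165 TPM, while its inhibitor Apoc3 fell from 7693 ± 328 to 5391 ± 346 TPM (−0.51, limma adjusted p = 0.000558). Apob, the structural protein of VLDL, fell from 772 ± 219 to 501 ± 67.1 TPM, and Apom, which carries sphingosine 1-phosphate, from 291 ± 45 to 191 ± 22.6 TPM. Apoa1 and Apoa2 of HDL were not called (0.23 and 0.14), and Mttp, which loads lipid onto Apob, rose on TPM only (0.33). Apob lost its call without MASH 4 (log2 fold change −0.50). Apoa1 was called without chow 4 (log2 fold change 0.30). Apolipoproteins and VLDL assembly members called higher numbered 3 without chow 3. Apolipoproteins and VLDL assembly members called lower numbered 4 without MASH 4. Apob, Apom and Mttp were picked with their values in view.

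Nitrogen metabolism fell. Of 12 urea cycle and ammonia genes, all tested, 7 fell under both scalings and 1 rose, and of 34 genes of amino acid catabolism, all tested, 22 fell under both scalings and 1, Gpt2, rose on TPM only. The medians were −0.78 and −0.51. Ass1, argininosuccinate synthase, was at 6665, 6981, 7489 and 7209 TPM in the chow libraries and 3462, 2376, 2231 and 2886 TPM in the MASH libraries, and Asl, the lyase that follows it, at 938, 930.5, 1102 and 1158 TPM in the chow libraries and 478, 350.2, 377 and 402 TPM in the MASH libraries. Neither overlapped between the groups (−1.39 and −1.36, limma adjusted p = 2.86e-05 and 1.66e-05). Cps1, the entry step, went from 568 ± 78.6 to 246 ± 58.8 TPM, Otc from 309 ± 53.9 to 149 ± 30.5 TPM and the liver glutaminase Gls2 from 323 ± 27.1 to 116 ± 18.7 TPM. The one rise was Glul, glutamine synthetase of pericentral hepatocytes, at 499, 545, 618 and 755 TPM in the chow libraries and 1284, 1358, 978 and 1908 TPM in the MASH libraries (log2 fold change 1.17 ± 0.189 (SE), limma adjusted p = 0.000783). Of amino acid genes, Cth, which makes cysteine from cystathionine, was at 333, 295, 288 and 285 TPM in the chow libraries and 98.0, 76.4, 67.7 and 81.9 TPM in the MASH libraries, and Got1, the cytosolic aspartate aminotransferase, at 214, 268, 308 and 364 TPM in the chow libraries and 119.8, 47.6, 51.5 and 90.3 TPM in the MASH libraries. Both fell by nearly 2 log2 units (−1.89 and −1.96, limma adjusted p = 2.99e-06 and 0.000517). Agxt, of glyoxylate clearance, fell by 1.65 on the log2 scale. Gpt2 lost its call without MASH 1, MASH 2, MASH 4, chow 1, chow 3 or chow 4 (log2 fold change 0.22 to 0.32). Amino acid catabolism members called higher numbered 0 without MASH 1, MASH 2, MASH 4, chow 1 or chow 3. Gpt2, Cps1 and Otc were picked with their values in view.

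Methyl group and NAD metabolism held the largest fall of all. Of 20 genes, all tested, 10 fell and 4 rose. Nnmt, which methylates nicotinamide and so spends both methyl groups and the precursor of NAD, was at 118, 130.4, 149 and 156 TPM in the chow libraries and 16.5, 4.8, 4.6 and 19.1 TPM in the MASH libraries (log2 fold change −3.75 ± 0.419 (SE), limma adjusted p = 0.000182; chromosome 9, 48591877 to 48605153 on the minus strand). MASH 1 and MASH 4 held more than 3 times the level of MASH 2 and MASH 3, all far below chow. Gnmt, the main consumer of the methyl donor S-adenosylmethionine, was at 3679, 4165, 3934 and 3757 TPM in the chow libraries and 1361, 920.0, 1217 and 1191 TPM in the MASH libraries, and the folate enzyme Aldh1l1 fell from 1655 ± 158 to 732 ± 61.7 TPM. The methionine cycle genes Ahcy and Bhmt fell from 1608 ± 281 to 669.7 ± 119 TPM and from 2651 ± 463 to 1273 ± 369 TPM, and the aldehyde oxidase Aox3 fell by 1.2 on the log2 scale. Mat1a, the hepatocyte S-adenosylmethionine synthetase, was called lower only after the scaling (−0.28 on TPM), while Mat2a, its form in other cells and in dividing hepatocytes, rose from 26.7 ± 2.95 to 46.2 ± 2.09 TPM. Mthfd2, of mitochondrial folate metabolism, went from 0.45 ± 0.173 to 2.17 ± 0.954 TPM. Mat1a was called without chow 1 (log2 fold change −0.40). Of the tested methyl group and NAD metabolism members, 1 passed the filter through the MASH libraries alone. Among the other 19, 3 rose, 2 of them under both scalings. Ahcy, Bhmt, Mat1a, Mat2a and Mthfd2 were picked with their values in view.

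Markers of periportal hepatocytes, which line the inflow side of the liver lobule, fell, while those of the pericentral side went both ways. Of 20 periportal hepatocyte markers, all tested, 13 fell and 3 rose, 13 and 1 of them under both scalings, with a median of −1.06. Many of these markers are the urea and amino acid genes above. Of 19 of 20 listed pericentral markers tested, 4 rose and 3 fell, with a median of 0.01. The shares of all genes that rose and fell on TPM were 36.9% and 11.2%. Aldh3a2, of fatty aldehyde oxidation, was at 114, 152, 111 and 131 TPM in the chow libraries and 442, 526, 372 and 558 TPM in the MASH libraries, Cyp1a2 fell from 507 ± 108 to 249.8 ± 33.5 TPM, and Cyp2e1, the most abundant, was at 2542 to 4164 TPM in the chow libraries and 2572 to 3426 TPM in the MASH libraries and was not called. Axin2 and Tbx3, targets of the Wnt signal of the central vein, were not called (0.37 and 0.37). The difference between the lists was not tested. Across the MASH libraries the median of the periportal list, relative to the chow mean, was −0.41 in MASH 1 and −1.25 in MASH 4. Axin2 was called without MASH 3 (log2 fold change 0.50). Tbx3 was called without MASH 3 (log2 fold change 0.48). Cyp1a2, Axin2 and Tbx3 were picked with their values in view.

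Genes of glucose metabolism went both ways. Of 25 of 26 listed genes tested, 10 rose and 5 fell, and 4 rose under both scalings, against 36.9%, 11.2% and 19.5% of all genes. The gluconeogenic enzymes Pck1 and G6pc were at 2829, 3276, 3954 and 2952 TPM in the chow libraries and 2339, 1199, 871 and 949 TPM in the MASH libraries and at 154, 167, 143 and 149 TPM in the chow libraries and 72.1, 74.2, 55.9 and 55.2 TPM in the MASH libraries. Both had separate groups (−1.39 and −1.25, limma adjusted p = 0.00278 and 2.63e-05). Ldha, lactate dehydrogenase A, rose from 803 ± 47.3 to 1508 ± 96.1 TPM, Aldoa, the aldolase of muscle and dividing cells, from 152 ± 12.5 to 295 ± 28.5 TPM, and Pkm, the pyruvate kinase of non-hepatocytes, from 19.1 ± 1.91 to 51.5 ± 10.9 TPM. Pklr, the pyruvate kinase of hepatocytes, was not called on TPM (−0.30). Of 14 of 16 listed insulin signalling genes tested, 3 rose and 1 fell, against 36.9% and 11.2% of all genes. Insr and Irs1 were not called on TPM (−0.10 and −0.51), and Socs3, a feedback inhibitor of cytokine and insulin signals, rose from 9.82 ± 3.30 to 18.8 ± 4.78 TPM with overlapping groups. Pklr was called without MASH 3 (log2 fold change −0.44). Irs1 was called without chow 3 or chow 4 (log2 fold change −0.68 to −0.62). Glycolysis, gluconeogenesis and fructose members called lower numbered 3 without MASH 2 or chow 3. Insulin signalling members called lower numbered 0 without MASH 2, MASH 4 or chow 1, 3 without chow 3 and 2 without chow 4. Pkm, Pklr, Insr and Irs1 were picked with their values in view.

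Drug-metabolising P450 genes fell in part. Of 24 of 29 listed genes of P450 families 1 to 3 tested, 10 fell under both scalings and 3 rose, 1 of them under both. Among the falls, Cyp2c54 was at 156, 206, 139 and 158 TPM in the chow libraries and 35.5, 31.9, 61.0 and 39.2 TPM in the MASH libraries, Cyp2c50 went from 424 ± 40.6 to 199 ± 22.0 TPM, Cyp2c37 from 144 ± 21.9 to 77.1 ± 9.30 TPM and Cyp2c29 from 824 ± 169 to 318 ± 95.6 TPM. Cyp2b10, the standard target of the receptor CAR, was at 8.5, 8.9, 5.4 and 3.4 TPM in the chow libraries and 1.5, 0.8, 1.0 and 0.3 TPM in the MASH libraries (log2 fold change −1.96 ± 0.27 (SE), limma adjusted p = 0.000339). Cyp3a11, the main target of PXR, rose on TPM only, from 392 ± 130.0 to 662 ± 174 TPM. Of 32 of 33 listed conjugation enzymes tested, 14 fell under both scalings and 8 rose, 4 under both. Sult2a8, a bile acid sulfotransferase, fell from 505 ± 183 to 165 ± 39.5 TPM and Ugt2a3 from 127 ± 11.3 to 56.0 ± 5.76 TPM, whereas the monooxygenase Fmo5 rose from 155 ± 9.13 to 355 ± 42.2 TPM and the epoxide hydrolase Ephx1 from 365 ± 36.4 to 842 ± 93.2 TPM. Cyp3a11 lost its call without MASH 1, MASH 3, chow 3 or chow 4 (log2 fold change 0.63 to 0.72). Cytochrome P450 families 1 to 3 members called higher numbered 6 without chow 2 and 1 without chow 3. Cyp2c29, Cyp3a11 and Sult2a8 were picked with their values in view.

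Transporters of bile acids and anions went both ways. Of 13 of 16 listed transporters tested, 7 fell and 4 rose, all under both scalings, and 1 more was called lower only after the scaling. The 4 rises were exporters: Abcc3, which returns conjugates to blood, went from 143 ± 25.2 to 265 ± 14.5 TPM, Abcg2 from 43.2 ± 0.465 to 72.5 ± 11.1 TPM, Abcc4 from 0.35 ± 0.058 to 1.40 ± 0.294 TPM and Abcb4, which moves phospholipid into bile, from 62.5 ± 9.32 to 95.9 ± 7.04 TPM. The falls included the main importers. Slc10a1, the sodium-dependent bile acid importer, was at 436, 571, 468 and 456 TPM in the chow libraries and 278, 220.3, 288 and 219 TPM in the MASH libraries, and Slc22a7, an importer of organic anions, at 67.1, 62.7, 99.8 and 104 TPM in the chow libraries and 23.2, 17.2, 23.4 and 26.9 TPM in the MASH libraries (−0.94 and −1.81, limma adjusted p = 0.000189 and 4.88e-05). Slco1a4 and Slco1b2 fell from 9.22 ± 5.19 to 1.73 ± 0.512 TPM and from 341 ± 145 to 165 ± 22.3 TPM. One exporter, the canalicular bile salt pump Abcb11, also fell (−0.47). Of 16 genes of bile acid synthesis, all tested, 5 fell and 2 rose. Cyp7a1, the rate-limiting enzyme, was at 7.9, 13.7, 16.6 and 13.4 TPM in the chow libraries and 7.0, 1.8, 8.6 and 18.6 TPM in the MASH libraries. MASH 4 held more than any chow library and MASH 2 less than all, and the groups were not told apart (limma adjusted p = 0.254). Cyp7b1 of the alternative route fell from 76.9 ± 12.3 to 32.0 ± 6.62 TPM and Cyp2c70, which makes the muricholic acids of mice, from 179.9 ± 21.8 to 79.3 ± 18.7 TPM, and the reductase Akr1d1 fell by 1.74 on the log2 scale. Abcb11 lost its call without chow 1 (log2 fold change −0.43). Cyp7a1 was called without MASH 4 (log2 fold change −1.17). Of the tested bile acid and organic anion transport members, 1, the exporter Abcc4, passed the filter through the MASH libraries alone, and 3 of the other 12 rose. Abcc3, Abcg2, Abcb4, Slco1a4, Slco1b2, Abcb11 and Cyp2c70 were picked with their values in view.

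Glutathione and NRF2 targets rose. Of 35 of 36 listed genes tested, 25 rose and 2 fell on TPM, and 16 and 2 under both scalings. Srxn1, sulfiredoxin, was at 10.4, 11.1, 12.2 and 11.2 TPM in the chow libraries and 37.5, 48.0, 28.4 and 46.4 TPM in the MASH libraries (log2 fold change 1.72 ± 0.152 (SE), limma adjusted p = 2.12e-05), and Gss, glutathione synthetase, at 50.3, 59.9, 52.8 and 62.4 TPM in the chow libraries and 116, 134, 120.5 and 169 TPM in the MASH libraries. The glutathione transferase Gstm4 rose from 58.5 ± 7.43 to 127 ± 9.33 TPM, and the membrane-bound Mgst1, the most abundant of the list, from 5509 ± 624 to 8590.2 ± 803 TPM. Enzymes that supply NADPH rose with them: Pgd went from 45.7 ± 7.95 to 92.8 ± 8.40 TPM and G6pdx from 1.68 ± 0.435 to 3.95 ± 0.614 TPM. Hmox1, heme oxygenase, went from 23.8 ± 6.01 to 60.6 ± 2.25 TPM. Nqo1, a standard NRF2 target, rose by 0.42 on TPM only, at 2.9 to 4.3 TPM in the chow libraries and 4.6 to 5.6 TPM in the MASH libraries, as did Nfe2l2, which encodes NRF2 itself (0.46). The peroxiredoxin Prdx1 fell (−0.51). Of the tested glutathione and NRF2 targets, 1 passed the filter through the MASH libraries alone. Among the other 34, 24 rose, 15 of them under both scalings. Pgd, G6pdx, Nqo1, Nfe2l2 and Prdx1 were picked with their values in view.

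Genes of the integrated stress response rose, while a change in its hub was not found. Of 21 listed genes 16 were tested, 2 of them through the MASH libraries alone, 11 rose and 1, Cth, fell, and 6 rose under both scalings. The factors named here are transcription factors of the response. Atf4, the factor at the hub, was at 61.5, 51.8, 50.8 and 61.0 TPM in the chow libraries and 48.0, 70.0, 61.0 and 60.9 TPM in the MASH libraries. The groups overlapped (limma adjusted p = 0.592). Fgf21, the hormone given to the mice of the third group and a target of both this response and PPAR alpha, was at 2.8, 7.2, 3.4 and 3.5 TPM in the chow libraries and 17.6, 38.5, 13.8 and 16.4 TPM in the MASH libraries. MASH 2 held more than 2 times the level of the other MASH libraries, and no library overlapped (log2 fold change 2.07 ± 0.317 (SE), limma adjusted p = 0.000671). Nupr1 was at 0.9, 1.8, 0.8 and 1.4 TPM in the chow libraries and 6.6, 13.3, 8.1 and 7.9 TPM in the MASH libraries, and Atf3 at 0.5, 0.5, 0.4 and 0.4 TPM in the chow libraries and 3.2, 4.5, 2.1 and 4.9 TPM in the MASH libraries. Both factors were low in all chow libraries (2.15 and 1.65, limma adjusted p = 3.23e-05 and 7.23e-05). Gdf15, a stress hormone, was at 22.4, 7.1, 3.8 and 3.6 TPM in the chow libraries and 15.4, 29.8, 16.0 and 32.6 TPM in the MASH libraries. Chow 1 lay inside the MASH range, and the call on TPM did not hold after the scaling. Among chaperones of the endoplasmic reticulum, of 23 of 24 listed genes tested 5 rose and 3 fell, 1 and 3 under both scalings, and Hspa5, which encodes BiP, was at 243 to 486 TPM in the chow libraries and 311 to 509.7 TPM in the MASH libraries and was not called. Among the receptors for FGF21, the co-receptor Klb was at 9.0, 11.7, 8.9 and 9.0 TPM in the chow libraries and 9.5, 8.9, 6.9 and 6.4 TPM in the MASH libraries (limma adjusted p = 0.143 on TPM, and called lower after the scaling), Fgfr4 fell from 48.5 ± 4.94 to 32.2 ± 2.47 TPM, and Fgfr1 was not called (−0.54). Gdf15 lost its call without MASH 1, MASH 2, MASH 4, chow 2, chow 3 or chow 4 (log2 fold change 1.26 to 1.69). Fgfr1 was called without chow 1 (log2 fold change −0.82). Of the other 14 tested integrated stress response members, 9 rose, 4 of them under both scalings. Integrated stress response members called higher numbered 6 without MASH 1, 5 without MASH 2 and 7 without MASH 4 or chow 3. ER chaperones and unfolded protein response members called higher numbered 1 without MASH 1 or MASH 2, 9 without MASH 3, 2 without MASH 4 or chow 2 and 3 without chow 3. ER chaperones and unfolded protein response members called lower numbered 1 without MASH 4, chow 1 or chow 2. Atf4, Gdf15 and Fgfr1 were picked with their values in view.

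The promoters of Fgf21, Atf3 and Nupr1 are shown because these 3 rises of the stress response share a motif, and they were picked for both traits. Here too a match of letters is not evidence of binding. The list is of genes of this response, so its share beside that of all genes is a description and not a test. The letters TGATGNAA on either strand, the form of the element bound by ATF4 with a C/EBP partner, occurred within 200 bases before the start in 5 of 15 tested members with a RefSeq entry (Atf3, Chac1, Fgf21, Vldlr and Nupr1) and in 2% of the 8571 tested genes. Of the 5, Chac1 was not called and Vldlr rose on TPM only and lost its call without chow 1, chow 3 or chow 4 (log2 fold change 0.45 to 0.53). The stretches lie at chr7:45615491-45615690 on the minus strand for Fgf21, chr1:191183334-191183533 on the minus strand for Atf3 and chr7:126625471-126625670 on the minus strand for Nupr1 on GRCm38.p6, and the capitals mark the match.
Fgf21: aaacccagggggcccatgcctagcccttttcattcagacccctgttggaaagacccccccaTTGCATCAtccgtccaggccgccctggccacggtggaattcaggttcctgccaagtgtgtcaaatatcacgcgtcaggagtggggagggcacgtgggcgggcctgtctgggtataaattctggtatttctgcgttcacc
Atf3: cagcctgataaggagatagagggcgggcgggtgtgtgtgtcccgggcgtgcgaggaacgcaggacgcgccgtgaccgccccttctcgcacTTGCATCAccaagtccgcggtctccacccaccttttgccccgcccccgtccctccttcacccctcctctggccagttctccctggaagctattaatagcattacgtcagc
Nupr1: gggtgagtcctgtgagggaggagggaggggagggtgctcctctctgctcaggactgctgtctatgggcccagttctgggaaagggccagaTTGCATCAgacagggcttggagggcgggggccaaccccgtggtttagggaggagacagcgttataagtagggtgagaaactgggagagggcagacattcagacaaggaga

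Secreted plasma proteins fell in part, and acute phase proteins rose. Of 23 secreted hepatocyte proteins, all tested, 8 fell under both scalings and 3 rose. Serpina1a and Serpina1c, forms of alpha-1-antitrypsin, fell from 7216 ± 662 to 4071 ± 375 TPM and from 8892 ± 2021 to 5715 ± 339 TPM, Ttr, which carries thyroxine, from 11854 ± 726 to 9253 ± 1106 TPM, and Serpinc1, antithrombin, from 4394 ± 307 to 3373 ± 247 TPM. Alb was not called (0.14). Of 21 acute phase proteins, all tested, 12 rose and 4 fell, 10 and 4 under both scalings. Saa1 and Saa2, serum amyloid A, were at 62.2, 54.7, 61.3 and 95.0 TPM in the chow libraries and 552, 314, 419 and 468 TPM in the MASH libraries and at 27.5, 24.8, 19.6 and 41.4 TPM in the chow libraries and 328, 156, 253 and 238 TPM in the MASH libraries. Lcn2, lipocalin-2, which binds bacterial iron carriers, was at 2.9, 5.6, 4.8 and 6.0 TPM in the chow libraries and 96.6, 56.4, 72.1 and 112 TPM in the MASH libraries (log2 fold change 3.86 ± 0.23 (SE), limma adjusted p = 2.99e-06). Hp, haptoglobin, and Hpx, hemopexin, the carriers of free haemoglobin and heme, rose from 4355 ± 583 to 7326 ± 898 TPM and from 4889 ± 496 to 8662 ± 531 TPM. Other members fell. Crp, C-reactive protein, fell from 237 ± 39.7 to 162 ± 26.9 TPM and the iron hormone Hamp, hepcidin, fell from 4102 ± 1264 to 2143 ± 405 TPM. Serpinc1, Crp and Hamp were picked with their values in view.

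Complement genes went both ways. Of 24 of 26 listed tested, 10 rose and 4 fell, 8 and 4 under both scalings. The shares of all genes that rose and fell were 36.9% and 11.2% on TPM, and 19.5% and 11.2% under both scalings. C1qa, C1qb and C1qc, the C1q chains that macrophages make, went from 37.4 ± 5.20 to 113 ± 14.9 TPM, 38.5 ± 7.08 to 140.2 ± 16.1 TPM and 35.5 ± 5.75 to 117 ± 13.9 TPM, and Cfp, properdin, from 18.3 ± 1.58 to 53.6 ± 5.95 TPM. Of the proteins that hepatocytes secrete, C3 was at 1334 to 1908 TPM in the chow libraries and 1555 to 1820.0 TPM in the MASH libraries and was not called, and C8b and C9 of the membrane attack complex fell by 1.15 and 0.66 on the log2 scale. Among hepatokines, Enho, which encodes the peptide adropin, was at 10.8, 4.4, 21.3 and 11.9 TPM in the chow libraries and 1.1, 0.9, 0.7 and 0.5 TPM in the MASH libraries (log2 fold change −2.70 ± 0.347 (SE), limma adjusted p = 0.000249). Tsku, tsukushi, rose from 34.9 ± 15.8 to 113 ± 34.4 TPM and Inhbe, an activin subunit, from 15.2 ± 5.60 to 33.2 ± 6.36 TPM. Of the 21 tested hepatokines 7 rose and 3 fell, against 36.9% and 11.2% of all genes. Of the tested complement members, 1 passed the filter through the MASH libraries alone. Among the other 23, 9 rose, 7 of them under both scalings. Of the tested hepatokines, 1 passed the filter through the MASH libraries alone. Among the other 20, 6 rose, 4 of them under both scalings. C1qa, C8b, C9, Tsku and Inhbe were picked with their values in view.

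The growth hormone axis fell in its receptor and in part of its output. Ghr, the growth hormone receptor, was at 239, 301, 217 and 208 TPM in the chow libraries and 129.5, 128, 136 and 101 TPM in the MASH libraries (log2 fold change −0.95 ± 0.133 (SE), limma adjusted p = 0.000314), Igfals, which stabilises circulating IGF1, went from 144 ± 44.5 to 78.9 ± 21.9 TPM, Igf1 from 415 ± 51.0 to 292 ± 28.5 TPM, and Igfbp3 rose from 6.12 ± 0.68 to 15.5 ± 2.92 TPM. Of 15 of 16 listed genes of the axis tested, 5 fell under both scalings and 3 rose. Of 19 of 20 listed hepatocyte genes that are higher in male mice tested, 7 fell and 2 rose under both scalings. Chow 2 stood apart here. Serpina1e was at 1828, 376, 4467 and 3052 TPM in the chow libraries and 311, 328, 708 and 486 TPM in the MASH libraries, and Hsd3b5 at 58.1, 8.9, 73.6 and 89.2 TPM in the chow libraries and 20.9, 19.4, 30.8 and 21.6 TPM in the MASH libraries. Chow 2 was the lowest chow library in both and lay below the MASH range in Hsd3b5. Neither gene was called on TPM, and Serpina1e was called lower after the scaling. Cyp2a4 and Cyp2b9, genes higher in females, were at 0.1, 3.1, 0.2 and 0.1 TPM in the chow libraries and 8.9, 9.3, 4.6 and 1.9 TPM in the MASH libraries and at 0.1, 9.7, 0.1 and 0.3 TPM in the chow libraries and 3.9, 4.1, 6.0 and 1.4 TPM in the MASH libraries, and chow 2 was the highest chow library in both. Mup3 fell from 10032 ± 1953 to 2808 ± 1038 TPM and Cyp4a12a rose from 99.8 ± 11.6 to 167 ± 10.7 TPM. Serpina1e was called without chow 2 (log2 fold change −2.75). Hsd3b5 was called without chow 2 (log2 fold change −1.63). Cyp2b9 was called without chow 2 (log2 fold change 1.96). Male-biased hepatocyte genes called lower numbered 11 without chow 2. Igfals, Igf1, Serpina1e, Hsd3b5 and Cyp2b9 were picked with their values in view.

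Macrophage genes rose in every MASH library. Of 15 resident Kupffer cell markers 14 were tested, 11 rose and 0 fell, 9 under both scalings, and the summed level of the list was 366 to 450.1 TPM in chow and 672 to 744 TPM on the MASH diet. The most abundant member of the list was Nr1h3, given above, which rose on TPM only. Its mean was 31.2 TPM higher in MASH than in chow. Clec4f, a lectin found on Kupffer cells only, was at 30.2, 29.7, 26.5 and 24.8 TPM in the chow libraries and 99.1, 81.5, 68.6 and 83.7 TPM in the MASH libraries, Cd5l, a macrophage survival factor, at 28.9, 33.3, 27.1 and 27.4 TPM in the chow libraries and 136, 117, 103 and 132 TPM in the MASH libraries, and Csf1r, the receptor for the growth factor of macrophages, at 13.0, 13.3, 11.9 and 11.6 TPM in the chow libraries and 46.8, 47.1, 42.1 and 46.1 TPM in the MASH libraries. All 3 had narrow groups that lay apart (1.54, 2.03 and 1.79). Timd4, a marker of long-resident Kupffer cells, was at 1.0 to 1.2 TPM in the chow libraries and 1.5 to 2.9 TPM in the MASH libraries and rose on TPM only (0.45). Adgre1, which encodes F4/80, was at 1.8, 1.5, 1.2 and 1.2 TPM in the chow libraries and 7.1, 8.2, 4.6 and 6.2 TPM in the MASH libraries. Timd4 lost its call without chow 3 (log2 fold change 0.42). Timd4 was picked with its values in view.

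Genes of lipid-associated and recruited macrophages rose as well. Of 20 listed, 19 were in the table and 15 tested, 6 of them through the MASH libraries alone. Of the tested, 13 rose and 0 fell, with the same calls under both scalings. Trem2, a lipid receptor that marks these cells, was at 0.8, 0.6, 0.5 and 0.5 TPM in the chow libraries and 3.5, 4.1, 4.8 and 16.2 TPM in the MASH libraries. MASH 4 held more than 3 times the level of the other MASH libraries, all of which were above chow (log2 fold change 2.12 ± 0.358 (SE), limma adjusted p = 0.00126; chromosome 17, 48346401 to 48354147 on the plus strand). Gpnmb was at 0.1, 0.0, 0.0 and 0.1 TPM in the chow libraries and 1.6, 2.6, 3.7 and 6.8 TPM in the MASH libraries, Lgals3, galectin-3, at 3.3, 4.4, 4.0 and 3.3 TPM in the chow libraries and 26.1, 25.1, 30.0 and 45.3 TPM in the MASH libraries, and Mmp12, macrophage elastase, at 0.1, 0.2, 0.1 and 0.1 TPM in the chow libraries and 3.1, 4.1, 3.7 and 5.6 TPM in the MASH libraries. MASH 4 was the highest library in Gpnmb and Lgals3 too, and Lyz2, lysozyme, was at 19.0, 19.1, 19.0 and 15.6 TPM in the chow libraries and 83.7, 88.2, 75.4 and 148 TPM in the MASH libraries, again highest in MASH 4. Spp1, osteopontin, often listed with these cells and also made by bile ducts, was at 18.8, 34.5, 20.8 and 26.7 TPM in the chow libraries and 21.3, 37.6, 58.0 and 63.1 TPM in the MASH libraries. The groups overlapped and it was not called (limma adjusted p = 0.0796). The monocyte genes Ccr2, Cx3cr1 and Ly6c2 were below the filter, with Ly6c2 at 0.3 to 0.8 TPM in the chow libraries and 0.9 to 2.3 TPM in the MASH libraries. Atp6v0d2, also listed and below the filter, went the other way, with a lower mean in the MASH libraries than in the chow libraries. With a MASH library left out, genes that pass only through the MASH libraries miss the filter and are not tested. Spp1 was called without MASH 1 (log2 fold change 1.04). Of the other 9 tested lipid-associated and recruited macrophage markers, 7 rose. Lipid-associated and recruited macrophage markers called higher numbered 8 without MASH 1 and 7 without MASH 2, MASH 3 or MASH 4. Ccr2, Cx3cr1, Ly6c2 and Atp6v0d2 were picked with their values in view.

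**Figure D4:**
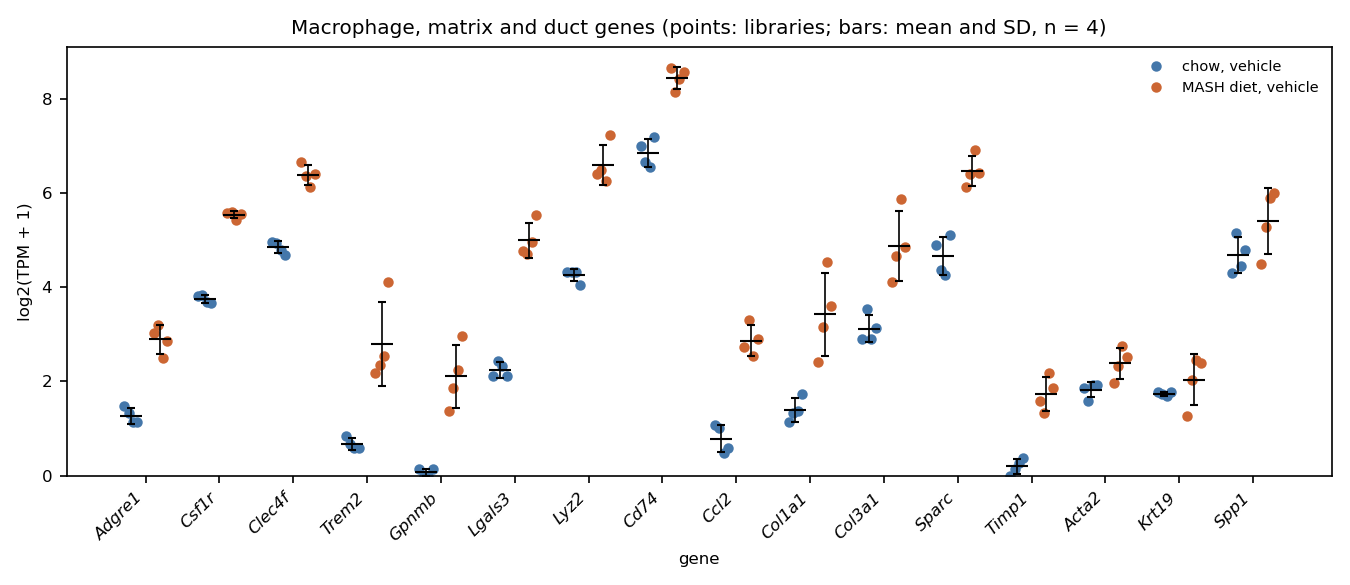
Level of 16 macrophage, matrix and bile duct genes as log2(TPM + 1) in each library (points; blue chow, orange MASH) with the group mean and SD (bars, n = 4). The groups are apart from Adgre1 to Acta2, with MASH 4 highest in Trem2 and MASH 3 in Col1a1, and overlap in Krt19 and Spp1.

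Antigen presentation genes rose. Of 14 of 15 listed genes, of class I and class II, tested, 11 rose and 0 fell, 8 under both scalings. Cd74, the class II chaperone, was at 127, 99.7, 93.1 and 144 TPM in the chow libraries and 399.6, 279, 338 and 375 TPM in the MASH libraries, and the class II genes H2-Aa and H2-DMb1 went from 29.2 ± 9.39 to 92.2 ± 14.7 TPM and from 4.75 ± 1.17 to 15.4 ± 2.60 TPM. Of class I, H2-D1 rose on TPM only, and H2-K1 and B2m were at 2116 to 2534 TPM in the chow libraries and 2166 to 2424 TPM in the MASH libraries and 2153 to 2360.1 TPM in the chow libraries and 2121 to 2431 TPM in the MASH libraries and were not called on TPM. Lysosome and phagocytosis genes rose in 21 of 29 tested cases and fell in 1, Lamp2, and 19 rises held under both scalings. The scavenger receptor Cd68 was at 7.6, 9.4, 6.3 and 6.6 TPM in the chow libraries and 37.7, 33.1, 33.4 and 43.1 TPM in the MASH libraries, the protease Lgmn went from 18.6 ± 0.993 to 56.6 ± 5.58 TPM, Ctss from 9.28 ± 1.30 to 32.6 ± 2.67 TPM, and Ctsd, cathepsin D, the most abundant member, from 398 ± 29.3 to 844 ± 114 TPM. The cathepsin Ctsh was not called on TPM (−0.31). Ctsh was called without MASH 1 or chow 4 (log2 fold change −0.41 to −0.39). Of the tested MHC presentation members, 1 passed the filter through the MASH libraries alone. Among the other 13, 10 rose, 7 of them under both scalings. Of the tested lysosome and phagocytosis members, 1 passed the filter through the MASH libraries alone. Among the other 28, 20 rose, 18 of them under both scalings. Lysosome and phagocytosis members called lower numbered 2 without MASH 1 or chow 4. H2-Aa, H2-D1, B2m, Lamp2 and Ctsh were picked with their values in view.

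Inflammatory signals rose from low levels. Of 31 chemokines and cytokines 17 were tested, 12 rose and 1, Il18, fell, 11 and 1 under both scalings. Ccl2, which draws in monocytes, was at 1.1, 1.0, 0.4 and 0.5 TPM in the chow libraries and 5.6, 8.8, 4.8 and 6.5 TPM in the MASH libraries (log2 fold change 2.08 ± 0.184 (SE), limma adjusted p = 2.12e-05), Ccl6 at 1.4, 2.1, 1.6 and 1.5 TPM in the chow libraries and 6.4, 6.1, 4.8 and 6.9 TPM in the MASH libraries, and Il1b at 0.3, 0.2, 0.3 and 0.2 TPM in the chow libraries and 1.8, 1.7, 1.4 and 1.5 TPM in the MASH libraries. Each was low in chow, and none overlapped. Tnf was below the filter, at 0.1, 0.1, 0.0 and 0.3 TPM in the chow libraries and 1.5, 0.7, 0.8 and 1.3 TPM in the MASH libraries. Cxcl9, a target of interferon gamma, was not called (0.32). Of 21 Toll-like receptor and inflammasome genes 13 were tested, 2 through the MASH libraries alone, and 9 rose and 0 fell, with the same calls under both scalings. Cd14, the co-receptor for lipopolysaccharide, was at 1.4, 2.0, 1.8 and 0.7 TPM in the chow libraries and 8.2, 6.7, 10.8 and 11.3 TPM in the MASH libraries, and Tlr2 and the inhibitor Tnfaip3 went from 0.55 ± 0.129 to 1.98 ± 0.206 TPM and from 0.55 ± 0.058 to 1.98 ± 0.15 TPM. Of 25 of 28 listed interferon response genes tested, 11 rose, against 36.9% of all genes, and 1, Oasl1, fell. Oas1a rose from 2.05 ± 0.208 to 6.72 ± 1.07 TPM and Irf1 from 30.5 ± 3.44 to 49.1 ± 7.26 TPM, whereas Ifit1, Isg15 and Rsad2, standard targets of type I interferon, were not called on TPM (−0.39, 0.39 and −0.45). Oasl1 lost its call without MASH 1, MASH 2, MASH 3, chow 1 or chow 2 (log2 fold change −0.49 to −0.38). Ifit1 was called without chow 4 (log2 fold change −0.50). Isg15 was called without MASH 3 or chow 1 (log2 fold change 0.49 to 0.50). Rsad2 was called without chow 4 (log2 fold change −0.63). Of the tested chemokines and cytokines, 1 passed the filter through the MASH libraries alone. Among the other 16, 11 rose, 10 of them under both scalings. Chemokines and cytokines called lower numbered 2 without chow 4. Of the other 11 tested toll-like and inflammasome genes, 7 rose. Of the tested interferon response members, 1 passed the filter through the MASH libraries alone. Among the other 24, 10 rose, 5 of them under both scalings, against 19.5% of all genes under both. Interferon response members called higher numbered 7 without MASH 1. Interferon response members called lower numbered 0 without MASH 1, MASH 2, MASH 3, chow 1 or chow 2 and 3 without chow 4. Il18, Cxcl9, Oasl1, Ifit1, Isg15 and Rsad2 were picked with their values in view.

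Matrix genes rose. Of 30 collagens and matrix proteins 25 were tested, 21 rose and 1, Col18a1, fell, 17 and 1 under both scalings, with a median of 0.92. Col1a1, the main chain of scar collagen, was at 1.2, 1.5, 1.6 and 2.3 TPM in the chow libraries and 4.3, 7.9, 22.0 and 11.1 TPM in the MASH libraries (log2 fold change 2.03 ± 0.366 (SE), limma adjusted p = 0.00179; chromosome 11, 94936224 to 94953042 on the plus strand). MASH 3 held more than 5 times the level of MASH 1, and MASH 1 was still above every chow library. Col3a1 was at 6.5, 10.5, 6.5 and 7.7 TPM in the chow libraries and 16.1, 24.3, 57.5 and 27.7 TPM in the MASH libraries, Col4a1, of basement membrane, at 8.4, 11.5, 8.3 and 9.5 TPM in the chow libraries and 19.3, 29.6, 27.4 and 25.4 TPM in the MASH libraries, and Sparc, which binds collagen, at 28.7, 19.5, 18.2 and 33.5 TPM in the chow libraries and 69.1, 82.8, 119 and 85.1 TPM in the MASH libraries. MASH 3 was the highest library in Col3a1 and Sparc too. Fn1, fibronectin, made mostly by hepatocytes, was at 364 to 468 TPM in the chow libraries and 429 to 465 TPM in the MASH libraries and was not called. Of 25 matrix enzymes and inhibitors 19 were tested, 3 through the MASH libraries alone, and 17 rose and 0 fell, 15 under both scalings. Timp1, which inhibits matrix metalloproteinases, was at 0.0, 0.1, 0.2 and 0.3 TPM in the chow libraries and 2.0, 1.5, 3.5 and 2.6 TPM in the MASH libraries, and the collagen prolyl hydroxylase P4ha2 went from 3.55 ± 0.695 to 11.6 ± 0.465 TPM. Col18a1 is made by hepatocytes and went from 629.8 ± 89.0 to 445 ± 55.1 TPM. Of the tested collagens and matrix members, 1 passed the filter through the MASH libraries alone. Among the other 24, 20 rose, 16 of them under both scalings. Of the other 16 tested matrix enzymes and inhibitors, 14 rose, 12 of them under both scalings. Col3a1 and Fn1 were picked with their values in view.

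Of 20 tested markers of stellate cells and myofibroblasts, 16 rose and 0 fell, and 10 rises held under both scalings. The summed level of the list was 343 to 464 TPM in chow and 517 to 778 TPM on the MASH diet. Tpm2, a tropomyosin, was at 11.1, 13.0, 11 and 8.5 TPM in the chow libraries and 43.7, 34.3, 47.8 and 54.4 TPM in the MASH libraries, and Tagln, transgelin, at 7.4, 6.3, 9.2 and 8.2 TPM in the chow libraries and 15, 18.4, 21.3 and 17.5 TPM in the MASH libraries. Acta2, smooth muscle actin and the usual marker of myofibroblasts, was at 2.6, 2.0, 2.8 and 2.8 TPM in the chow libraries and 2.9, 4.0, 5.7 and 4.7 TPM in the MASH libraries. Its groups lay apart but close, and the call on TPM (0.56, limma adjusted p = 0.016) did not hold after median-of-ratios scaling. Lrat and Rgs5, markers of quiescent stellate cells and pericytes, were not called on TPM (0.19 and 0.61). Endothelial markers rose in 14 of 21 cases and fell in 0, 9 under both scalings, with summed levels of 229 to 276 TPM in chow and 324 to 444 TPM on the MASH diet. The sinusoidal scavenger receptor Stab2 went from 10.8 ± 0.826 to 23.3 ± 1.54 TPM, Pecam1 from 2.95 ± 0.265 to 6.97 ± 1.17 TPM and the cadherin Cdh5 from 5.05 ± 0.48 to 11.8 ± 2.13 TPM. Clec4g, the most abundant of the list, went from 68.7 ± 3.45 to 107 ± 20.9 TPM, and Kdr and Dnase1l3 were not called on TPM. Lrat was called without chow 2 (log2 fold change 0.30). Rgs5 was called without chow 2 (log2 fold change 0.84). Kdr was called without MASH 3, MASH 4 or chow 3 (log2 fold change 0.40 to 0.41). Sinusoidal and vascular endothelial markers called higher numbered 9 without MASH 2. Lrat, Rgs5, Kdr and Dnase1l3 were picked with their values in view.

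Genes of hepatocyte injury rose, and no bile duct marker was called higher. Of 28 injury and progenitor genes 21 were tested, 14 rose and 1, Tff3, fell, 13 and 1 under both scalings. Ly6d, a surface protein of the Ly6 family, was at 1.7, 5.1, 2.9 and 2.1 TPM in the chow libraries and 70.5, 80.8, 104 and 136 TPM in the MASH libraries (log2 fold change 4.67 ± 0.265 (SE), limma adjusted p = 2.99e-06). Anxa2 and Anxa5, annexins, were at 15, 19.5, 11.2 and 16.9 TPM in the chow libraries and 127, 176, 148 and 263 TPM in the MASH libraries and at 34.8, 47.7, 40.7 and 42.3 TPM in the chow libraries and 134, 181, 151 and 217 TPM in the MASH libraries. The keratins Krt8 and Krt18 of the hepatocyte skeleton rose from 349 ± 19.1 to 817 ± 146 TPM and from 260.4 ± 15.3 to 568 ± 69.6 TPM, the cell cycle inhibitor Cdkn1a from 3.42 ± 1.46 to 21.3 ± 10 TPM, and Ccnd1, cyclin D1, from 5.33 ± 1.15 to 18.1 ± 2.79 TPM. The progenitor and duct genes Sox9 and Epcam were not called (−0.06 and 0.13). Of 15 cholangiocyte markers 10 were tested, 0 rose and 1, Tstd1, fell, with summed levels of 76.6 to 103 TPM in chow and 61.3 to 118 TPM on the MASH diet. Krt19, a duct keratin, was at 2.4, 2.3, 2.2 and 2.4 TPM in the chow libraries and 1.4, 3.1, 4.5 and 4.2 TPM in the MASH libraries. MASH 1 was below and the other MASH libraries above all chow libraries. Most tested cell cycle genes rose from low levels. Of 26 listed 17 were tested, 3 through the MASH libraries alone, and 13 rose and 1, Pcna, fell, 11 and 1 under both scalings. After the scaling 2 were called lower. Tk1, the most abundant member, had a lower mean in the MASH libraries and was not called lower on TPM. Cdc20 was at 0.8, 1.1, 1.1 and 0.5 TPM in the chow libraries and 11, 6.7, 4.7 and 3.0 TPM in the MASH libraries, and Stmn1 went from 5.97 ± 0.842 to 16.6 ± 4.19 TPM. Tff3 lost its call without MASH 2 or chow 4 (log2 fold change −0.87 to −0.81). Krt19 was called without MASH 1 (log2 fold change 0.56). Of the tested hepatocyte injury and progenitor genes, 1 passed the filter through the MASH libraries alone. Among the other 20, 13 rose, 12 of them under both scalings. Hepatocyte injury and progenitor genes called lower numbered 0 without MASH 2 or chow 4. Cholangiocyte markers called higher numbered 4 without MASH 1 and 1 without chow 2. Of the other 14 tested cell cycle members, 10 rose, 9 of them under both scalings. Tff3, Krt18, Cdkn1a, Ccnd1, Sox9, Epcam, Krt19 and Pcna were picked with their values in view.

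Among further large changes, several genes belong to no list. Ifi27l2b, a relative of an interferon-induced gene, was at 6.2, 8.3, 4.6 and 5.7 TPM in the chow libraries and 77.0, 65.7, 65.3 and 114 TPM in the MASH libraries, Fam83a at 0.4, 0.4, 0.5 and 0.7 TPM in the chow libraries and 9.5, 16.1, 12.9 and 16.3 TPM in the MASH libraries, and Adam11, a disintegrin of the nervous system, at 2.3, 3.9, 4.2 and 2.6 TPM in the chow libraries and 31.2, 33.5, 52.6 and 39.3 TPM in the MASH libraries. All 3 rose by more than 3 log2 units with narrow groups (limma adjusted p = 2.99e-06, 1.31e-06 and 2.99e-06). Fam83a passed the filter through the MASH libraries alone. Among the falls, Zap70, a kinase of T cell signalling, was at 14.0, 13.9, 17.8 and 16.2 TPM in the chow libraries and 2.3, 2.2, 2.3 and 2.8 TPM in the MASH libraries and Clec2h, a lectin-like gene, at 5.2, 11.3, 10 and 9.8 TPM in the chow libraries and 1.0, 0.5, 2.3 and 2.7 TPM in the MASH libraries. The fall of Zap70 (log2 fold change −2.27 ± 0.112 (SE), limma adjusted p = 1.31e-06) stood beside T and NK cell markers at low levels, with summed levels of 3.5 to 5.4 TPM in chow and 7.7 to 11.8 TPM on the MASH diet. Of 20 such markers 2 were tested, 1, Lck, rose (0.56) and Trbc2 was not called, and Cd3e was at 0.1 to 0.2 TPM in the chow libraries and 0.1 to 0.4 TPM in the MASH libraries. Trbc2 was called without chow 4 (log2 fold change 0.48). Of the tested T and NK cell markers, 1 passed the filter through the MASH libraries alone, and 0 of the other 1 rose. T and NK cell markers called higher numbered 0 without MASH 1, MASH 2, MASH 3 or MASH 4 and 2 without chow 4. Cd3e was picked with its values in view.

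Markers of other cell types stayed low or moved with the groups as follows. Of 14 listed neutrophil markers 3 were tested and 3 rose, with S100a9 at 0.4, 0.6, 0.7 and 0.8 TPM in the chow libraries and 2.5, 2.2, 2.6 and 2.6 TPM in the MASH libraries and Csf3r at 0.7, 1.3, 0.9 and 0.6 TPM in the chow libraries and 3.2, 3.1, 2.8 and 3.0 TPM in the MASH libraries. The third is Lcn2, which hepatocytes also make. Of 5 tested B and plasma cell genes, 3 rose on TPM (Cd79a, Cd79b and Cd22), 2 of them under both scalings, and Ighm fell from 17.6 ± 2.81 to 7.90 ± 1.61 TPM. Of 6 tested dendritic cell genes 5 rose, 3 under both scalings, and Irf8 went from 2.48 ± 0.206 to 6.12 ± 0.512 TPM. The haemoglobin genes were not called, with Hbb-bs at 638 to 1231 TPM in the chow libraries and 728 to 1558 TPM in the MASH libraries. The one tested acinar pancreas gene of 18 listed, Cela1, fell from 58.9 ± 11.8 to 29.1 ± 1.60 TPM. Msln, of the mesothelial capsule, was at 0.5, 1.4, 0.9 and 0.5 TPM in the chow libraries and 1.6, 2.1, 2.4 and 2.1 TPM in the MASH libraries, Des, shared by muscle and stellate cells, rose from 2.80 ± 0.469 to 4.62 ± 0.746 TPM, Car2, of red cells among others, from 2.12 ± 0.457 to 7.67 ± 1.19 TPM and the platelet gene Pf4 from 1.02 ± 0.525 to 3.12 ± 1.56 TPM. No mast cell marker was tested. The part of these cells in the changes above was not tested. Cd79a lost its call without MASH 2, MASH 3, chow 1, chow 3 or chow 4 (log2 fold change 0.40 to 0.47). Of the tested neutrophil markers, 1 passed the filter through the MASH libraries alone, and 2 of the other 2 rose. Of the tested B and plasma cell markers, 1 passed the filter through the MASH libraries alone. Among the other 4, 2 rose, 1 of them under both scalings. B and plasma cell markers called higher numbered 1 without MASH 2 or MASH 3. Of the tested dendritic cell markers, 2 passed the filter through the MASH libraries alone. Among the other 4, 3 rose, 1 of them under both scalings. Dendritic cell markers called higher numbered 3 without MASH 1 or MASH 4 and 2 without MASH 2. Cd79a was picked with its values in view.

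The remaining lists were as follows, beside shares of all genes of 36.9% that rose and 11.2% that fell on TPM. Under both scalings the shares were 19.5% and 11.2%. Of 19 of 20 listed clock genes tested, 0 rose and 1, Rora, fell, and Nr1d1, the most abundant, was at 177 to 237 TPM in the chow libraries and 176 to 196 TPM in the MASH libraries. Of 26 of 27 listed hepatocyte transcription factors and nuclear receptors tested, 5 rose and 1 fell, 2 and 1 under both scalings. Nr1i2, which encodes PXR, rose from 46.1 ± 2.39 to 68.7 ± 8.10 TPM. Of 42 ribosomal protein genes 17 rose on TPM and 1, Rpl6, under both scalings, and 2 fell. Of 35 nuclear genes of oxidative phosphorylation 8 rose and 5 fell on TPM, 2 and 5 under both scalings. The mitochondrially encoded genes fell in 9 of 13 cases, against 11.2% of all genes, with mt-Co1 at 13862 to 33424 TPM in the chow libraries and 6359 to 10034 TPM in the MASH libraries. With the GC trend removed 6 fell, and the median log2 fold change of the list was −0.11, against −0.55 on TPM. Of 18 of 19 listed glucocorticoid and cAMP targets tested 1 rose and 4 fell. Of retinoid genes 6 of 21 rose and 6 fell, 1 and 6 under both scalings, with the retinol dehydrogenases Rdh11 and Rdh16f2 down from 34.3 ± 4.92 to 13.7 ± 2.29 TPM and from 132 ± 8.15 to 43.9 ± 8.60 TPM. Of sphingolipid enzymes 8 of 21 rose and 4 fell, and Smpd3, a neutral sphingomyelinase, went from 2.67 ± 0.793 to 11.3 ± 4.23 TPM. Of iron and heme genes 8 of 20 rose and 2 fell, with Slc11a2, an iron importer, up from 9.05 ± 1.35 to 21.4 ± 3.76 TPM. Nr1d1 was called without chow 2 (log2 fold change −0.26). Circadian clock members called higher numbered 1 without chow 4. Circadian clock members called lower numbered 2 without MASH 1, chow 2 or chow 4 and 3 without chow 1. Hepatocyte transcription factors and nuclear receptors members called higher numbered 3 without MASH 4. Hepatocyte transcription factors and nuclear receptors members called lower numbered 0 without MASH 1, MASH 4, chow 2, chow 3 or chow 4 and 2 without MASH 3 or chow 1. Cytosolic ribosomal proteins called higher numbered 10 without MASH 4. Cytosolic ribosomal proteins called lower numbered 1 without MASH 1, MASH 2 or chow 2 and 0 without MASH 4 or chow 1. Oxidative phosphorylation, nuclear members called higher numbered 5 without MASH 1. Oxidative phosphorylation, nuclear members called lower numbered 3 without MASH 2, MASH 4 or chow 2. Glucocorticoid and cAMP response members called higher numbered 2 without MASH 3, MASH 4 or chow 1. Sphingolipid enzymes called lower numbered 2 without MASH 1, MASH 2, MASH 3, chow 1 or chow 3 and 1 without MASH 4 or chow 2. Iron and heme members called lower numbered 1 without MASH 4, chow 2 or chow 3.

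The MASH libraries differed among themselves in which lists were furthest from chow. As the median of log2(TPM + 1) over a list's members, relative to the chow mean, lipid-associated macrophage genes were at 2.07 in MASH 4 and 1.5 to 1.68 in the others. Collagens and matrix genes were at 1.14 in MASH 3 and 0.52 in MASH 1, and stellate markers at 0.94 and 0.32 in the same libraries. Lipid droplet genes and the integrated stress response were highest in MASH 2, at 1.11 and 0.90, and Kupffer, MHC and interferon genes in MASH 1, at 1.21, 1.30 and 0.64. The order of the 4 libraries thus differed between macrophage, matrix and lipid genes, and with 4 libraries no relation between the lists was computed. Cholesterol synthesis was nearly even, at −1.41 to −1.11. The genes most uneven among MASH libraries were Cfd, Sprr1a, a cornified envelope gene, at 0.0, 0.4, 0.0 and 0.0 TPM in the chow libraries and 2.1, 5.2, 7.9 and 14.1 TPM in the MASH libraries, Col1a1, Adgrv1, an adhesion receptor, at 0.9, 1.3, 1.3 and 2.4 TPM in the chow libraries and 5.0, 5.6, 7.6 and 25.3 TPM in the MASH libraries, and Cyp2a4. MASH 4 was highest in Sprr1a and Adgrv1 and lowest in Cyp2a4. Sprr1a passed the filter through the MASH libraries alone.

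**Figure D5:**
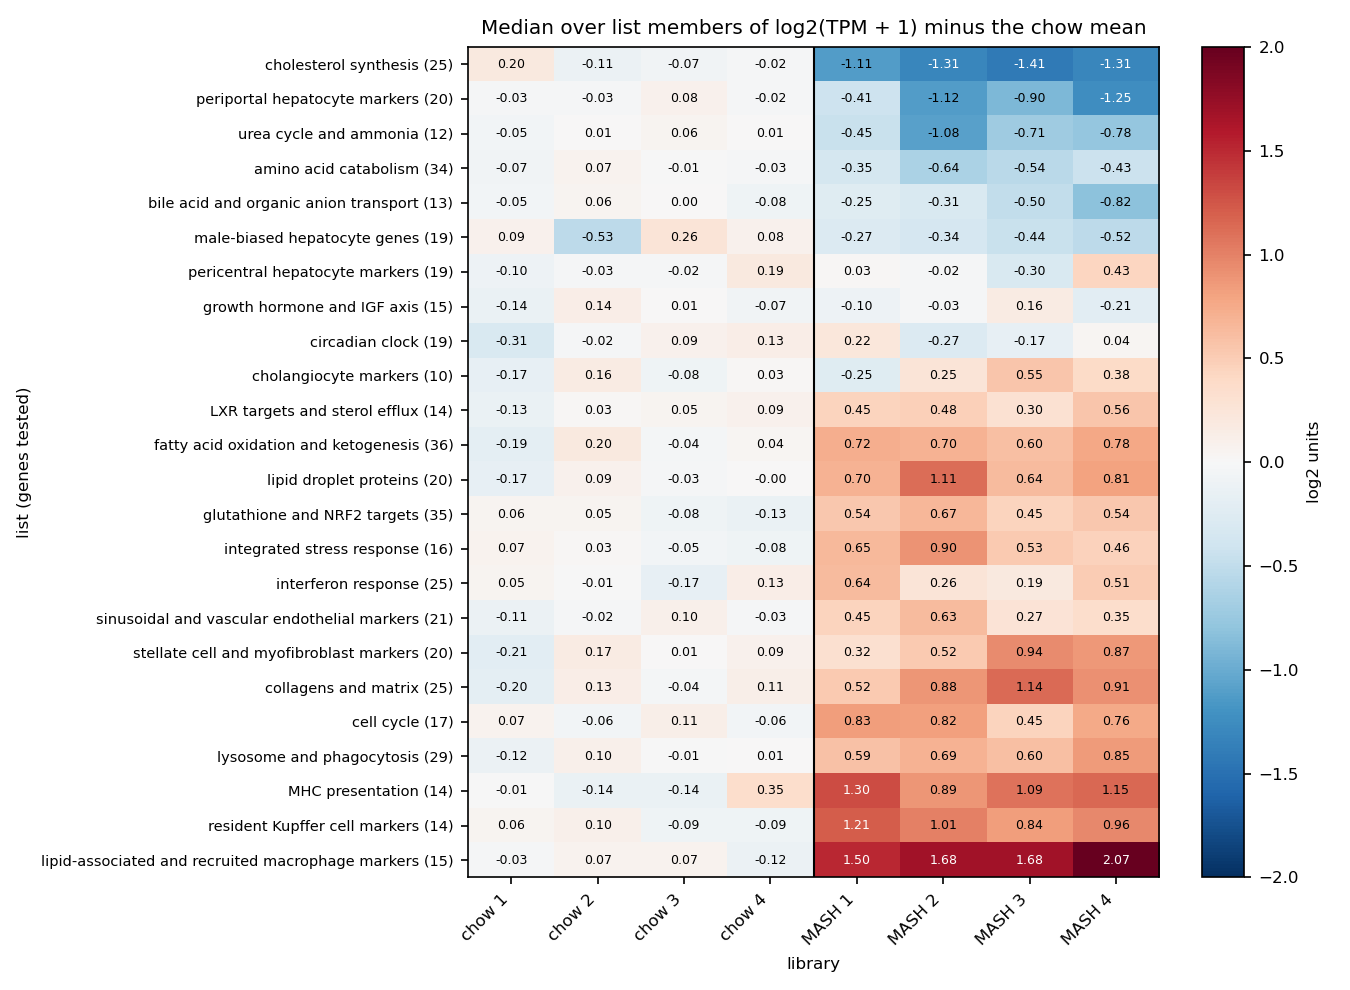
Median over the tested members of 24 lists of log2(TPM + 1) minus the chow mean, in each of the 8 libraries (columns; blue lower, red higher, number of genes in brackets). The 4 MASH columns share their sign in most lists, and differ in size, with MASH 4 at 2.07 for lipid-associated macrophages and MASH 3 at 1.14 for collagens; chow 2 stands at −0.53 for male-biased genes.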

How the data were processed

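Whole-liver RNA was purified on Qiagen RNeasy columns and selected with oligo-dT, per the labels' protocols. Per the submitters' processing notes, Trim Galore 6.10, Salmon 1.10.2 and build mm10 were used. The authors deposited values named FPKM that sum to 999842 to 999891 per library and were therefore read as TPM, with 1 decimal. The test planned for FPKM was used unchanged on log2(TPM + 1). Genes with at least 1 TPM in at least 4 of the 8 libraries were fitted in limma 3.58.1 (R 4.3.3) with trend and robust options, two-sided, with Benjamini-Hochberg adjustment over all genes. The fit was checked on simulated data. Nothing states that libraries came from separate animals, so p-values cover only how these samples vary, and that variation may be technical. Unmatched columns numbered 0. Coordinates are from GENCODE M21 (GRCm38), in which 14547 genes were found, and promoters from RefSeq (GRCm38.p6).

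The 63 lists (45 pathway, 18 marker) and the naming rule were chosen with earlier results of these data known, and 112 genes stand in more than 1 list. The rule took, leaving out predicted, Mup, mitochondrial and immunoglobulin genes from its ranks of single genes, the 12 largest rises and falls called under both scalings without overlap and with a higher mean of at least 5 TPM, the 6 largest differences in TPM each way, the 3 called members with the smallest p and the most abundant member of each list, the 8 most abundant genes, the 5 most uneven among MASH libraries, and 19 fixed genes. The text names fewer, and genes outside the rule are marked as picked with their values in view. Some genes are not reported here. Alternatives were pseudocounts of 0.1 and 5, other filters, scalings and fits, and each library left out.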

Additional observations from a re-analysis of the deposited data

Results flagged for a closer look

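A library was flagged where its gap to the nearest library of its group exceeded the share of its group's range given by Dixon's 95% critical value. This was so in 41 of 541 groups of 4 (7.6%), tested for the genes with values in the text. Chance flags about 1 in 20 groups where values are not rounded, and rounding to 1 decimal can change this at low levels. MASH 1 was the highest of its group in Cps1 (334 TPM, others 209 to 228 TPM). MASH 1 was the lowest of its group in Cd22 (1.0 TPM, others 1.1 to 1.1 TPM), by the smallest step that values of 1 decimal allow. MASH 2 was the highest of its group in Acss2 (108 TPM, others 84.7 to 87.8 TPM), Fgf21 (38.5 TPM, others 13.8 to 17.6 TPM), Ighm (10.3 TPM, others 6.9 to 7.4 TPM) and Mthfd2 (3.6 TPM, others 1.6 to 1.8 TPM). MASH 2 was the lowest of its group in Ifit1 (1.1 TPM, others 1.9 to 2.0 TPM). MASH 3 was the highest of its group in Pklr (314 TPM, others 208 to 226 TPM) and Rgs5 (13.8 TPM, others 5.0 to 6.3 TPM). MASH 3 was the lowest of its group in Fads2 (772 TPM, others 1158 to 1201 TPM), Ly6c2 (0.9 TPM, others 2.2 to 2.3 TPM) and Msmo1 (9.6 TPM, others 15.5 to 16.3 TPM). MASH 4 was the highest of its group in Adgrv1 (25.3 TPM, others 5.0 to 7.6 TPM), Cela1 (31.5 TPM, others 28.2 to 28.4 TPM), Krt18 (672 TPM, others 527 to 542 TPM), Lgmn (65.0 TPM, others 53.4 to 54.3 TPM), Trem2 (16.2 TPM, others 3.5 to 4.8 TPM) and Zap70 (2.8 TPM, others 2.2 to 2.3 TPM). MASH 4 was the lowest of its group in Sox9 (1.2 TPM, others 1.7 to 1.8 TPM). Chow 1 was the highest of its group in Acaca (22.4 TPM, others 19.3 to 19.5 TPM), Acly (386 TPM, others 174 to 186 TPM), Cyp51 (38.4 TPM, others 34.2 to 34.8 TPM), Fasn (708 TPM, others 267 to 329 TPM) and Insig1 (234 TPM, others 96.7 to 115 TPM). Chow 2 was the highest of its group in Apoc2 (1113 TPM, others 684 to 718 TPM), Cd36 (93.9 TPM, others 21.9 to 33.5 TPM), Cyp2a4 (3.1 TPM, others 0.1 to 0.2 TPM), Cyp2b9 (9.7 TPM, others 0.1 to 0.3 TPM), Cyp2c37 (176 TPM, others 131 to 134 TPM), Cyp4a14 (203 TPM, others 27.1 to 47.5 TPM), Ehhadh (103 TPM, others 83.4 to 85.5 TPM), Epcam (1.5 TPM, others 0.7 to 0.8 TPM), Fgf21 (7.2 TPM, others 2.8 to 3.5 TPM), Klb (11.7 TPM, others 8.9 to 9.0 TPM), Lrat (3.3 TPM, others 2.1 to 2.2 TPM), Slco1a4 (17.0 TPM, others 6.4 to 6.8 TPM) and Slco1b2 (557 TPM, others 243 to 294 TPM). Chow 3 was the highest of its group in Clec4g (73.8 TPM, others 66.2 to 67.4 TPM). Chow 4 was the highest of its group in H2-K1 (2534 TPM, others 2116 to 2149 TPM) and Trbc2 (2.0 TPM, others 0.7 to 0.8 TPM). Chow 4 was the lowest of its group in Lyz2 (15.6 TPM, others 19.0 to 19.1 TPM). The flagged genes of chow 1 all belong to fatty acid and sterol synthesis or its control.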

How the results depend on the processing

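The counts of 3966 genes higher and 1209 lower changed most with the scaling. They were 2101 and 2360 after median-of-ratios scaling, and quantile normalization gave 2148 and 2355. They were 3646 and 885 with the GC trend removed, 3242 and 861 with all 12 libraries in the fit, and 2889 and 840 with the stricter filter. Other settings gave 3949 to 4541 higher and 1196 to 1313 lower. Leaving out single libraries gave 3007 to 3795 higher and 833 to 1389 lower. The labels do not say whether the replicate numbers pair the libraries. Deviations of same-numbered libraries from their group means correlated at 0.27, −0.05, −0.18 and 0.41, which cannot decide it. Replicates 1 and 4 correlated best with their own number, and 2 and 3 did not. A block for the number gave 3977 higher and 1313 lower. Of 230 genes named in the text and called on TPM, 18 lost the call after median-of-ratios scaling, 19 after quantile normalization, 15 with the GC trend removed, 17 in the fit of 12 libraries, 5 with the block and 16 when at least 1 library was left out. The cause of these losses was not tested. Genes that passed the filter only through the MASH libraries were not tested without a MASH library, so the count of 16 leaves those fits of them out. The sign turned with the GC trend removed for Apoe (−0.020), Atf4 (−0.086), B2m (0.26), C3 (−0.0019) and H2-K1 (−0.076). The sign turned with array weights for Acat2 (0.00050), B2m (0.0094), Fasn (0.14) and Sox9 (0.033). The sign turned with median-of-ratios scaling for Alb (−0.094), Apoa2 (−0.089), Atf4 (−0.14), Bcl6 (−0.0077), C3 (−0.13), Fn1 (−0.096), H2-K1 (−0.17), Hspa5 (−0.099) and Nr1h3 (−0.012). The sign turned with quantile normalization for Atf4 (−0.11), B2m (0.030), Cyp2e1 (0.050), Epcam (−0.093) and Ttr (0.011). Over the fits without 1 library, the log2 fold change ran across 0 for Acat2 (−0.075 to 0.027), B2m (−0.046 to 0.019), Bcl6 (−0.19 to 0.73), Fasn (−0.32 to 0.15), Hspa5 (−0.062 to 0.27) and Sox9 (−0.096 to 0.026). Apoe, Nr1h3 and Ttr were called on TPM, and the other genes whose sign turned were not. TPM keeps no depth, so how many reads stand behind a value of about 1 TPM is unknown, and the 1-decimal rounding limits such values. Changes smaller than the shift between the scalings have no settled direction.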

Other observations

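Regulators of the growth hormone response varied between libraries of both groups and were not called. Bcl6, a repressor of female-biased genes in male mouse liver, was at 48.2, 17.1, 7.7 and 8.9 TPM in the chow libraries and 43.3, 34.4, 8.9 and 7.8 TPM in the MASH libraries. Cish, an early target of growth hormone signalling, was at 3.9, 29.1, 30.0 and 52.3 TPM in the chow libraries and 3.5, 4.4, 40.8 and 16.2 TPM in the MASH libraries, and Onecut1, a hepatocyte factor that is higher in female mice, at 2.5, 10.6, 12.9 and 32.2 TPM in the chow libraries and 1.5, 1.7, 19.2 and 10.3 TPM in the MASH libraries. MASH 1, MASH 2 and chow 1 held the highest Bcl6 of the 8 libraries and the lowest Cish and Onecut1. These 3 genes were chosen after their values were seen, and with 4 libraries a group no relation between them was computed.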
